A study of Mus musculus with 12 samples.

Results

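The nuclear genes for the subunits of the 5 oxidative phosphorylation complexes were followed in the meninges (the sheets of tissue around the brain) of mice with and without chemically induced colitis. Members were the symbols of the count table that name complex I to V subunits (Ndufa, Ndufb, Ndufc, Ndufs and Ndufv genes, Sdha to Sdhd, Uqcr genes, Cox4 to Cox8 genes and Atp5 genes), without assembly factors and without 4 pseudogene symbols. This rule found 84 of 47747 symbols: 37 for complex I, 4 for complex II, 8 for complex III, 18 for complex IV and 17 for complex V. Total RNA was sequenced from 12 C57bl/6 mice, 1 library each. The DSS group of 6 mice drank 2% DSS (dextran sulfate sodium, which damages the lining of the colon) for 5 days and then plain water. The Control group held the other 6 mice of the same strain, and culling was after 6 days. The labels give no age, sex or cage, and no animals are said to have been pooled. Their source field reads colon whereas titles and extraction protocol name meninges.

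Oxidative phosphorylation takes place at the inner mitochondrial membrane. Complexes I (NADH dehydrogenase) and II (succinate dehydrogenase) pass electrons from NADH and succinate to ubiquinone, complex III (the cytochrome bc1 complex) passes them to cytochrome c, and complex IV (cytochrome c oxidase) to oxygen. Complexes I, III and IV pump protons, and complex V (ATP synthase) uses the proton gradient to make ATP. Most subunits are made from nuclear genes and imported, whereas a small core set is encoded by the mitochondrial genome. Complex II is built from nuclear genes only.

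The libraries held 9312788 to 41869997 counts each and were tested over 18593 genes. In Control replicate 2, ribosomal RNA features took 61.3% of the counts, against 1.13% to 10.5% in the other 11 libraries. Fibroblast markers were abundant in every library (10 markers, summed level 12938 to 19898 CPM in Control and 11720 to 22766 CPM in DSS mice, where CPM is a count scaled to a common library size). All 12 neutrophil markers rose in DSS mice. Of 13 tested skeletal muscle markers, 0 passed the test, but the library of DSS replicate 2 stood apart, with a summed muscle level of 263.5 CPM against 25.01 to 39.1 CPM in Control mice. Fewer cells of a type and less RNA per cell cannot be told apart in such bulk libraries.

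None of the 82 members that passed the filter on low counts passed the test between the groups. With edgeR's quasi-likelihood test, adjusted over all 18593 genes, 0 members rose and 0 fell at an adjusted p under 0.05, whereas 4.94% of all tested genes were called (3.68% risen and 1.26% fallen). At an unadjusted p under 0.05 there was 1 member, Sdha, against 19.0% of all genes, and with the DESeq2 Wald test 1 member, again Sdha, was called. The unadjusted count depended on single mice. It was 14 members without Control replicate 1, 11 without DSS replicate 5 and 6 without Control replicate 2. With voom it was 5, and in the other alternatives 1 to 4. The share of all genes at this threshold is not given for these alternatives, so the counts are not read as a result about the members. The values of the groups overlapped for every member, whereas they did not overlap for 3.05% of all genes. The 95% interval of the fold change lay within 1.5-fold in either direction for 74 of 82 members, and within 1.25-fold for 27 (3 of 17 in complex V). The 8 members whose interval reached past 1.5-fold were Ndufa5, Uqcrq, Cox6b2, Cox6a2, Cox8b, Cox7a1, Atp5s and Atp5k.

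Fitted fold changes were small and mostly below zero. The log2 fold change of DSS over Control was below zero for 74 of 82 members (90.2%), with a median of -0.11 and a range from -0.35 for Cox6b2 to 0.35 for Cox6a2. Over all tested genes the median was -0.02 and 54.7% lay below zero. The members' median depended on single mice. Without Control replicate 6 it was -0.03, with 51 of 82 members below zero. It was -0.07 without DSS replicate 2 or without DSS replicate 4, and -0.18 without Control replicate 1. By complex, the median was -0.11 for I, -0.11 for II, -0.10 for III, -0.07 for IV and -0.15 for V. Without Control replicate 6 these 5 medians were -0.02, -0.07, -0.01, 0.04 and -0.09, and without DSS replicate 2 they were -0.06, -0.06, -0.07, -0.06 and -0.13. Without DSS replicate 4 the median was -0.05 for complex III and -0.02 for complex IV. Complex IV moved with other mice too, to -0.13, -0.10 and -0.04 when Control replicate 1, 2 or 4 was left out, and to -0.13 when DSS replicate 1 was. Values below zero were found for 35 of 37 complex I genes, 4 of 4 in complex II, 7 of 8 in complex III, 11 of 16 in complex IV and 17 of 17 in complex V. Members are not replicates of the treatment, and these counts carry no test.

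**Figure D1:**
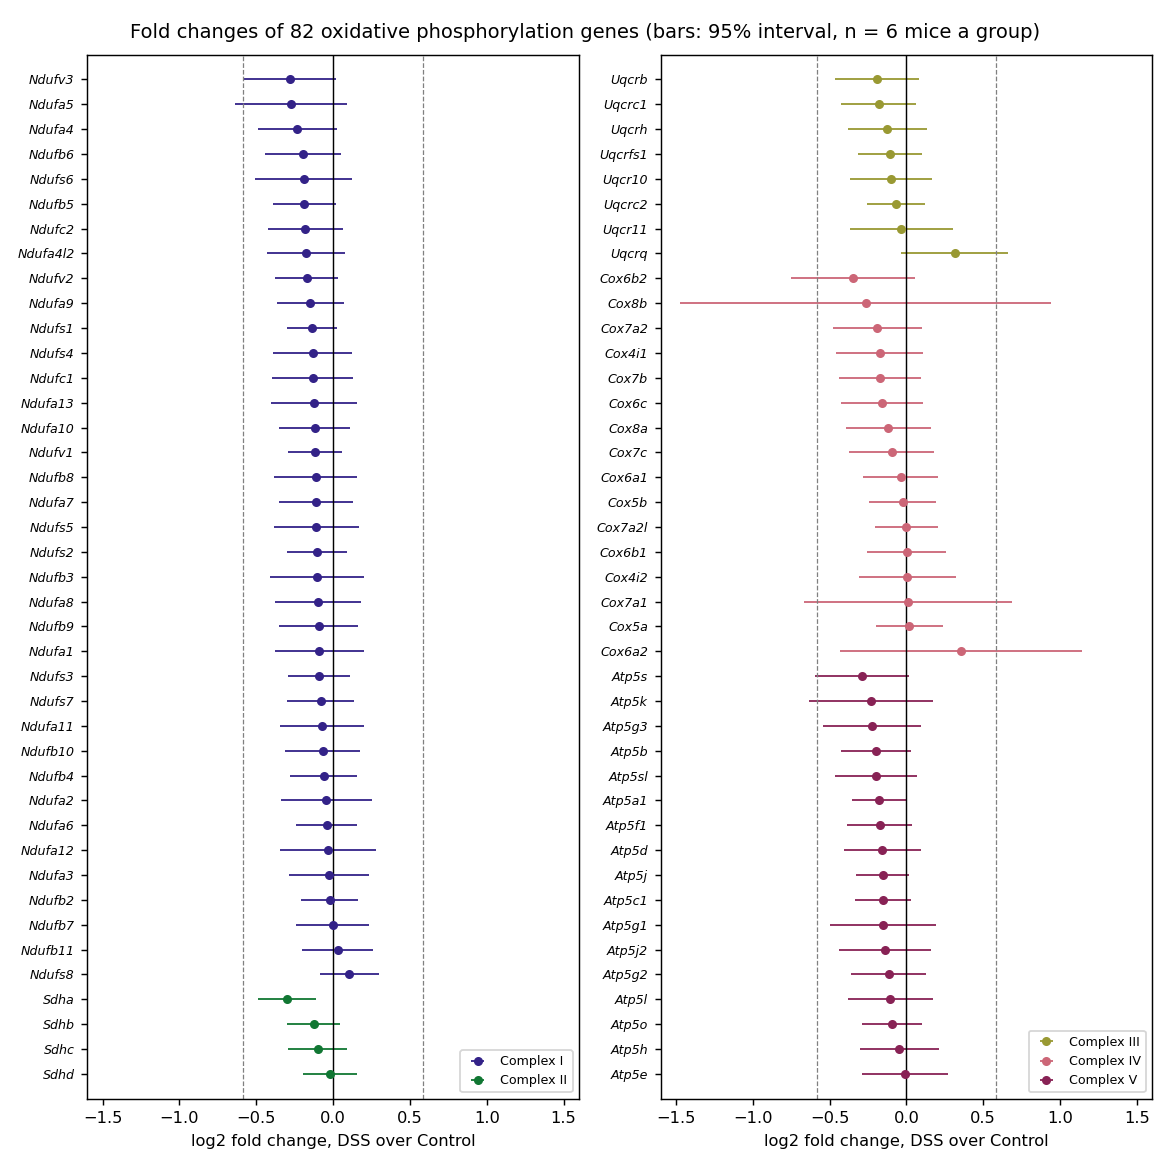
Fitted log2 fold change of DSS over Control for each of the 82 tested members, ordered within its complex, with 95% intervals as bars and 1.5-fold in either direction as dashed lines (n = 6 mice a group). Most points lie a little left of zero, the interval of Sdha alone excludes zero, and those of Cox6a2, Cox7a1 and Cox8b are the widest.

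The genes of all complexes shared their variation from mouse to mouse. The mean log2 CPM of the tested members was 5.17 ± 0.20 (SD, n = 6) in Control mice and 5.07 ± 0.16 in DSS mice, with ranges of 4.91 to 5.46 and 4.83 to 5.27 that overlapped. Both groups held mice with high and mice with low levels. In Control replicates 1 to 6, 5, 16, 57, 73, 67 and 79 of the 82 members lay above their own median over the 12 mice. In DSS replicates 1 to 6 the numbers were 65, 6, 36, 3, 72 and 13. The lowest and highest mice thus differed within each group by more than the groups did from each other. Over all tested genes the corresponding share lay between 48.3% and 53.3% in every mouse. Control replicate 2, the library with much ribosomal RNA, was low within its group but not the lowest. Such high and low mice were not particular to the members. The mean log2 CPM of mitochondrial ribosomal protein genes ran from 3.49 in Control replicate 1 to 3.99 in Control replicate 6. In DSS mice it ran from 3.50 in replicate 2 to 3.83 in replicate 5. The same mice were lowest and highest in their group for cytosolic ribosomal protein genes.

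**Figure D2:**
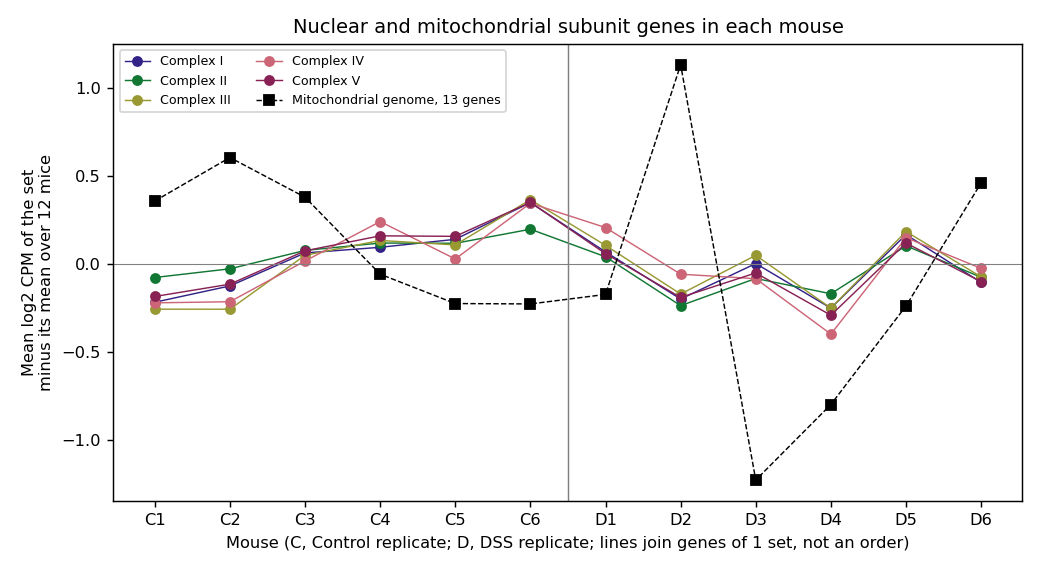
Mean log2 CPM of the nuclear genes of each complex and of the 13 genes of the mitochondrial genome in each mouse, minus the mean over the 12 mice (lines join the values of a set and show no order of mice). The 5 nuclear sets move together across mice within both groups, and the mitochondrial genome's genes take another course, highest in DSS replicate 2 and lowest in DSS replicate 3.

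Levels between genes were compared per length, as RPKM (CPM per kilobase of annotated exon). Complex IV spanned the widest range, from 0.580 RPKM for Cox6a2 to 198.5 RPKM for Cox8a, both means over 12 mice. Cox6a1 followed at 132.2 RPKM and Cox4i1 at 110.8 RPKM. In complex V the catalytic core genes Atp5a1 (alpha subunit) and Atp5b (beta subunit) led with 101.1 RPKM each, and Atp5k, for a subunit of the membrane part, had 69.9 RPKM. Per length, these 2 core genes differed by less than their spread between mice, while Atp5s was lowest at 2.23 RPKM. In CPM, Atp5b was higher, at 375.6 to 531.8 CPM in Control mice against 297.6 to 374.1 CPM for Atp5a1. The length counts every annotated exon of a gene (4.237 kb for Atp5b and 3.135 kb for Atp5a1), whether used here or not. All orders by RPKM depend on it. In complex III the small subunit genes Uqcr11 (80.0 RPKM), Uqcr10 (69.1 RPKM) and Uqcrh (54.0 RPKM) were highest. In complex I, Ndufa2 had 75.0 RPKM, Ndufa13 68.0 RPKM and Ndufa4 55.8 RPKM. The 4 complex II genes lay close together, at 37.4 RPKM for Sdhd, 29.6 RPKM for Sdha, 19.9 RPKM for Sdhb and 17.2 RPKM for Sdhc. Cox8c had 0 counts in every library and Cox7b2 at most 1 count, so neither was tested. Cox8c is known from testis, and of 6 testis markers Tnp1 and Pgk2 were at 0 counts in all libraries, while Prm1, Prm2, Odf1 and Ldhc had at most 7 counts summed over a group.

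**Figure D3:**
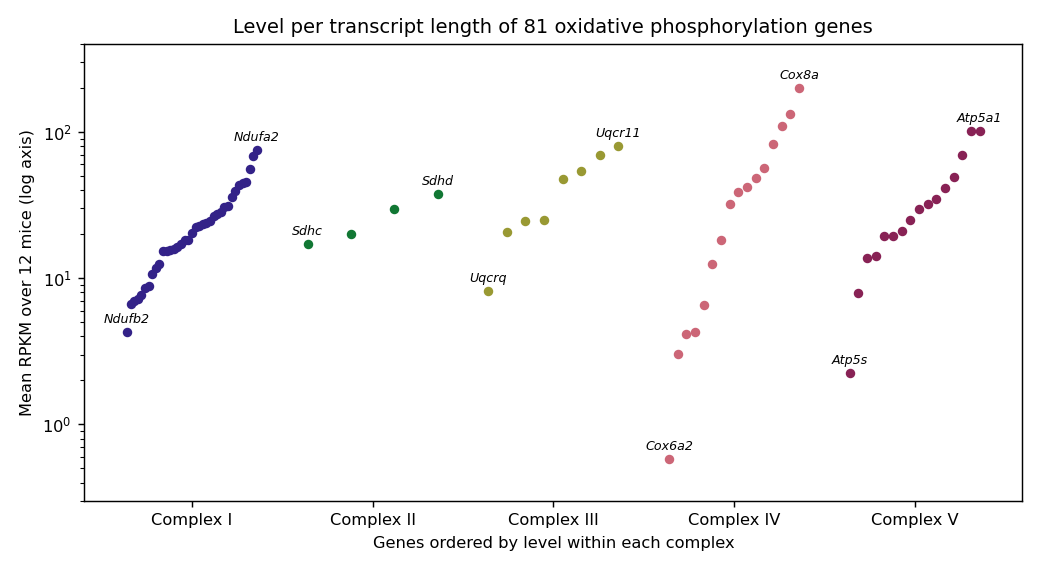
Mean level per length (RPKM, log axis) over 12 mice of the 81 tested members with a known exon length, ordered within each complex, with the highest and the lowest gene named. Complex IV reaches from Cox6a2 at 0.580 to Cox8a at 198.5 RPKM, whereas the 4 genes of complex II lie between 17.2 and 37.4 RPKM.

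The promoters of these genes are known to hold sites of a few shared regulators, among them nuclear respiratory factor 1 (NRF1), the ETS-type factor GABP, YY1 and the estrogen-related receptors (ERR). RefSeq windows of 300 bases (250 before and 50 after the start, build GRCm38.p6) were found for 69 of the 84 members, 75 windows in all. Exact matches were counted on both strands. The NRF1 letters GCGCATGC stood in 13.3% of members' windows and in 2.71% of all 32851 windows. The ETS letters CCGGAAGT stood in 6.67% and 3.89%, the YY1 letters AAGATGGC in 16% and 2.75%, and the ERR letters TCAAGGTCA in 2.67% and 0.423%. At least 1 of the 4 was present in 37.3% of members' windows (27 members) and in 9.25% of all windows. Median GC content was 57.3% in the members' windows and 52.7% in all, and its part in these shares was not tested. The YY1 letters lay across or after the start in 10 of 12 windows, and the NRF1 letters before it in 8 of 10. A match describes letters and is no evidence of binding. A stretch from 1 gene each of complexes I, IV, III and V is shown. They are examples of windows with a match before the start, of which there were 8 for NRF1, 3 for ETS, 2 for YY1 and 1 for ERR. The Uqcr11 window also holds the NRF1 letters, outside the stretch shown. Each stretch is given 5′ to 3′ on the gene's strand and ends where the GENCODE gene begins, with matches in capitals:
Ndufa6 (chr15:82354323-82354541, minus strand, NRF1): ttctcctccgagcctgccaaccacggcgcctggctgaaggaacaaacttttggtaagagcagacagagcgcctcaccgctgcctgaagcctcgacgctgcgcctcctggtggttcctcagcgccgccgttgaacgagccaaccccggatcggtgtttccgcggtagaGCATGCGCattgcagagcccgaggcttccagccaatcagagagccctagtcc
Cox6a1 (chr5:115348982-115349208, minus strand, overlapping NRF1 matches on both strands): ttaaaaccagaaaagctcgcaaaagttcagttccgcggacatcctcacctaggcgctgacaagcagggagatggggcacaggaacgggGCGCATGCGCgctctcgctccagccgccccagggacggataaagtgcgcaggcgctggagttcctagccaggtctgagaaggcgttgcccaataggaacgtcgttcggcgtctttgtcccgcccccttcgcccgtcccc
Uqcr11 (chr10:80406831-80407071, minus strand, ETS): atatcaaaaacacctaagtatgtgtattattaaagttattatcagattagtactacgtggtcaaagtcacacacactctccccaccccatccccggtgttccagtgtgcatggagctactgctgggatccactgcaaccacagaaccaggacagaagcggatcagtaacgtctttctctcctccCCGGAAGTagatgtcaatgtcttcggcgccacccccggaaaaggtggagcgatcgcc
Atp5g3 (chr2:73911327-73911576, minus strand, ERR): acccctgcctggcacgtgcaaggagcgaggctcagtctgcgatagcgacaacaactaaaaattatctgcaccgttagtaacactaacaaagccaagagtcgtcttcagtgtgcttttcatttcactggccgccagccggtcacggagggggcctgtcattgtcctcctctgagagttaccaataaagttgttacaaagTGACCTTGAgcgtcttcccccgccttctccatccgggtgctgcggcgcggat

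The genes of these 4 windows did not pass the test. The log2 fold change was -0.04 for Ndufa6 and -0.04 for Cox6a1. It was -0.03 for Uqcr11 and -0.23 for Atp5g3. The genes of the factors themselves were measured too, with log2 fold changes of -0.07 ± 0.074 (SE) for Nrf1, 0.01 ± 0.060 for Gabpa and -0.02 ± 0.080 for Yy1. For Esrra, which encodes an estrogen-related receptor, the value was 0.003 ± 0.095.

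Complex II came closest to a difference, through Sdha. Sdha encodes the flavin-bearing catalytic subunit that oxidizes succinate, and lies on chromosome 13 from 74322254 to 74350280 (mm10, minus strand). It measured 113.5 CPM in the lowest, 134.9 CPM at the median and 150.7 CPM in the highest Control mouse. In DSS mice it measured 99.1, 104.4 and 130.8 CPM. The ranges overlapped, since DSS replicate 1 (130.8 CPM) lay above 3 Control mice. The log2 fold change was -0.30 ± 0.088 (SE, n = 6 a group), an 18.8% lower fitted level, with an unadjusted p of 0.00403 and an adjusted p of 0.0641. It passed the threshold with the DESeq2 Wald test (adjusted p = 0.0241) and in edgeR's test without DSS replicate 1 (adjusted p = 0.0316), and in no other alternative, where adjusted p ranged from 0.0517 to 0.154.

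The other 3 complex II genes gave smaller values. Sdhb encodes the iron-sulfur subunit and lies on chromosome 4 (140961203 to 140979193). Its log2 fold change was -0.13 ± 0.081, with medians of 47.1 CPM in Control and 41.1 CPM in DSS mice. Sdhc and Sdhd encode the membrane anchor, and their log2 fold changes were -0.10 ± 0.090 and -0.02 ± 0.083. The adjusted p of these 3 genes lay between 0.447 and 0.944. The summed level of the 4 genes ran from 258.7 to 303.7 CPM in Control and from 228.6 to 279.8 CPM in DSS mice, so that the groups overlapped.

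In complex I, 35 of 37 members lay below zero and none passed the test. The smallest p belonged to Ndufv3, for an accessory subunit next to the NADH-binding site, with medians of 61.9 CPM in Control and 50.5 CPM in DSS mice. Its log2 fold change was -0.28 ± 0.14, with an adjusted p of 0.304. Ndufa4, classed by its name here although its protein is now counted to cytochrome c oxidase, had medians of 86.1 and 70.6 CPM and a log2 fold change of -0.23 ± 0.12 (adjusted p = 0.320). Its relative Ndufa4l2, known as a hypoxia-induced gene, was low, at medians of 8.05 and 6.92 CPM, with a log2 fold change of -0.18 ± 0.12. Both these ranges overlapped between the groups. The most abundant member per length, Ndufa2, had medians of 40.9 and 40.3 CPM, and its log2 fold change was -0.04 ± 0.14. For Ndufa13, an accessory subunit also known as GRIM-19, the log2 fold change was -0.12 ± 0.13. The 2 members above zero were Ndufs8, for an iron-sulfur subunit (0.10 ± 0.090), and Ndufb11 (0.03 ± 0.11). These 2 were named for their sign, after their values were seen. With Ndufa4 and Ndufa4l2 counted under complex IV, the medians were -0.11 for complex I and -0.11 for complex IV.

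In complex III, 7 of 8 members lay below zero and none passed the test, and the exception in sign was Uqcrq. Uqcrq encodes a small subunit that binds near the ubiquinone site and lies on chromosome 11 (53427922 to 53430831). It ran from 7.29 CPM over a median of 14.0 CPM to 16.9 CPM in Control mice, and from 14.4 over 16.3 to 21.1 CPM in DSS mice. The lowest value was that of Control replicate 2, the library with much ribosomal RNA. The log2 fold change was 0.31 ± 0.16, with an adjusted p of 0.323, and 0.22 without Control replicate 2. Uqcrc1, which encodes a core protein of the matrix side, had medians of 113.0 and 92.8 CPM and a log2 fold change of -0.18 ± 0.11 (adjusted p = 0.436). Uqcrh, the hinge protein gene, gave -0.12 ± 0.12, Uqcr10 -0.10 ± 0.13 and Uqcr11 -0.03 ± 0.16, all on the log2 scale. Their groups overlapped.

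Complex IV has subunits with common and tissue-restricted forms, and the common forms made up most of the RNA. Cox4i1 had medians of 180.3 CPM in Control and 160.3 CPM in DSS mice and a log2 fold change of -0.18 ± 0.13. For Cox8a, the most abundant member per length, medians were 125.3 and 121.3 CPM and the log2 fold change was -0.12 ± 0.13. Adjusted p was 0.529 and 0.706. Cox7a2 (-0.19 ± 0.13) and Cox7b (-0.17 ± 0.12) gave log2 fold changes of like size, whereas those of Cox6a1 (-0.04 ± 0.11), Cox6b1 (0.001 ± 0.12) and Cox5a (0.02 ± 0.10) were near zero. Of these, Cox5a was not among the genes named by rule. Cox7a2l, whose protein is known for joining complexes III and IV into supercomplexes, had medians of 78.9 and 83.2 CPM and a fitted change of -0.03%. Its 95% interval on the log2 scale ran from -0.21 to 0.20. Whether the protein has this function in the strain used was not tested.

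The tissue-restricted forms were scarce. Cox6a2, the heart and muscle form, had between 1 and 15 counts in a library, 0.0899 to 0.587 CPM in Control and 0.280 to 0.598 CPM in DSS mice. Its log2 fold change was 0.35 ± 0.37, with an interval from -0.44 to 1.14. Cox7a1, another heart and muscle form that brown fat also uses, ran from 0.755 to 2.27 CPM in Control and from 0.657 to 2.28 CPM in DSS mice, with a log2 fold change of 0.01 ± 0.31. Cox8b, restricted to the same tissues, ran from 0.419 to 3.39 CPM and from 0.246 to 2.88 CPM, with a log2 fold change of -0.26 ± 0.56. The groups overlapped almost fully for these 3 genes. Cox4i2, an oxygen-regulated form best known from lung, had medians of 3.37 and 3.28 CPM and a log2 fold change of 0.01 ± 0.15. Cox6b2, known as a testis form, had the lowest log2 fold change of all tested members. It had medians of 7.99 and 5.71 CPM, ranges of 5.95 to 9.92 and 4.10 to 9.67 CPM, and a log2 fold change of -0.35 ± 0.19 (adjusted p = 0.347). Testis markers were near 0 in both groups (summed level at most 0.108 CPM).

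Per length, each restricted form was a small share of its common counterpart. The median ratio was 0.423% in Control and 0.490% in DSS mice for Cox6a2 over Cox6a1. For Cox7a1 over Cox7a2 it was 5.88% and 6.90%, and for Cox8b over Cox8a 2.17% and 1.87%. The ratio of Cox4i2 to Cox4i1 was 3.88% and 4.10%, and that of Cox6b2 to Cox6b1 was 9.17% and 6.59%. Ndufa4l2 stood at 11.8% and 12.3% of Ndufa4. The ranges of the groups overlapped for all 6 pairs, and no test was made of these ratios.

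The muscle forms were compared with the level of muscle transcripts in each library. In DSS replicate 2, the skeletal muscle genes Acta1 (alpha actin) and Ckm (creatine kinase) reached 36.7 and 20.8 CPM. In the other 5 DSS mice they lay at 0.350 to 0.880 CPM and 0.0333 to 0.369 CPM. Control mice had 0.650 to 3.45 CPM of Acta1 and 0.539 to 1.79 CPM of Ckm. In the same DSS replicate 2, Cox6a2 was at 0.441 CPM, Cox8b at 1.10 CPM and Cox7a1 at 2.28 CPM, all within the range of the other mice, with Cox7a1 close to its highest value in either group. The log2 fold changes of Acta1 (1.42 ± 1.08) and Ckm (1.63 ± 1.21) did not pass the test (adjusted p = 0.536 and 0.525).

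**Figure D4:**
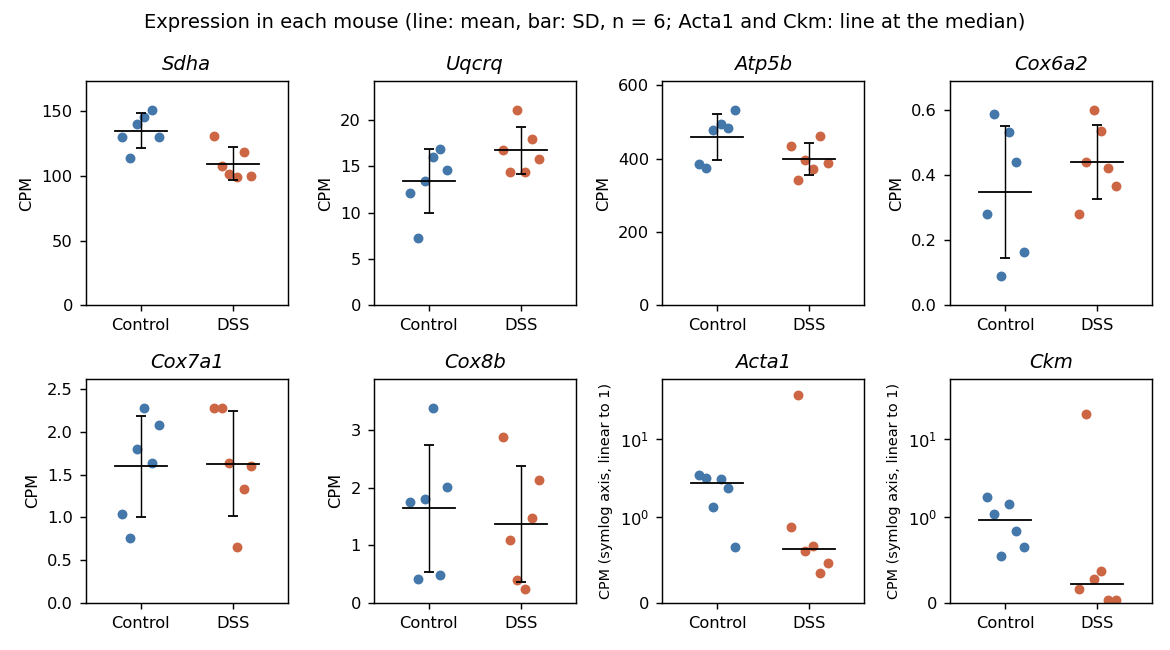
Level in each mouse (CPM, points from left to right are replicates 1 to 6) of 6 members and of the muscle markers Acta1 and Ckm, whose axes are linear up to 1 CPM and logarithmic above. Lines and bars are the mean and SD (n = 6), or the median alone for Acta1 and Ckm, where DSS replicate 2 stands apart at 36.7 and 20.8 CPM while its Cox6a2, Cox7a1 and Cox8b lie within the range of the other mice.

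In complex V all 17 members lay below zero, none past the test. Atp5a1, for the alpha subunit, had medians of 336.0 CPM in Control and 295.0 CPM in DSS mice and a log2 fold change of -0.18 ± 0.083 (unadjusted p = 0.0521, adjusted p = 0.269). Atp5b, for the catalytic beta subunit, ran from 375.6 over 480.0 to 531.8 CPM in Control and from 341.7 over 392.8 to 461.8 CPM in DSS mice. Its log2 fold change was -0.20 ± 0.11 (adjusted p = 0.339), and the groups overlapped. The 3 genes for the same subunit c of the rotor ring, which differ in the part removed on import, were compared side by side. Atp5g1 had medians of 74.6 and 66.9 CPM and a log2 fold change of -0.15 ± 0.16. For Atp5g2 these were 42.9 and 40.2 CPM and -0.12 ± 0.11, and for Atp5g3 46.5 and 36.5 CPM and -0.23 ± 0.15. Their adjusted p lay between 0.457 and 0.691. Atp5k gave a log2 fold change of -0.23 ± 0.19. Atp5s, known as coupling factor B, was the least abundant member of the group, with medians of 4.93 and 4.25 CPM and a log2 fold change of -0.29 ± 0.14 (adjusted p = 0.289). Atp5s and Atp5sl carry ATP synthase names although Atp5sl is now known as an assembly protein of complex I, and without both the median of complex V was -0.15.

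The 13 subunit genes of the mitochondrial genome varied more between mice than the nuclear ones. Their mean log2 CPM ran from 8.36 to 9.19 in Control and from 7.36 to 9.72 in DSS mice, and they were 0.809% to 2.37% and 0.822% to 3.37% of all counts. The share of 0.809% was that of Control replicate 2, where ribosomal RNA features took 61.3% of the counts. Its mean log2 CPM of 9.19 was the highest of the Control mice. The mean over mice was 8.73 ± 0.35 (SD) in Control and 8.45 ± 0.85 in DSS mice. None of the 13 genes passed the test, and their median log2 fold change was -0.001. They ranged from -0.66 to 0.12, with 7 below zero and 6 above. Medians in Control and DSS mice were 6684 and 5598 CPM for mt-Co1, and 744.6 and 523.1 CPM for mt-Nd1. The highest mt-Nd1 value was 2134 CPM, in DSS replicate 2. mt-Co1, the catalytic core of complex IV, had a log2 fold change of -0.001 ± 0.30, and mt-Nd1, of complex I, one of 0.05 ± 0.42. With standard errors of that size, none of the 13 had a 95% interval within 1.5-fold. The order of mice differed from that of the nuclear genes: DSS replicate 2 had the highest mitochondrial level (9.72), while 6 of its 82 nuclear members lay above their own median.

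As with the members, 0 other genes of the pathway passed the main test. Of 19 further nuclear subunits, electron carriers and ubiquinone enzymes, 0 passed the test, with a median log2 fold change of -0.07. For 46 assembly factors, which help build the complexes, the count was 0 and the median -0.08, with Tmem126b at -0.33 ± 0.10 (adjusted p = 0.0776, and 0.04997 with the DESeq2 Wald test). Of 16 enzymes of the citrate cycle and its entry, which supply NADH and succinate, 0 passed and 14 lay below zero, with a median of -0.16. Sucla2, a subunit of succinyl-CoA ligase, was closest, at -0.25 ± 0.072 (adjusted p = 0.0640). Sucla2 passed with the DESeq2 Wald test (adjusted p = 0.0455), with voom (0.0451) and without Control replicate 1 (0.0439). Of 14 regulators of mitochondrial biogenesis, 0 passed. Ppargc1a, for the coactivator PGC-1alpha, gave -0.29 ± 0.34 (adjusted p = 0.729). Nfe2l2, for the antioxidant factor NRF2, gave 0.21 ± 0.078 (adjusted p = 0.155), and passed without DSS replicate 2 (0.27, adjusted p = 0.0177). Tmem126b, Sucla2 and Nfe2l2 were named after their values were seen. These 5 lists gave 2 genes with an unadjusted p under 0.05 among the 19, 4 among the assembly factors, 5 among the citrate cycle enzymes, 2 among the regulators and 0 among the mitochondrially encoded genes, beside 19.0% of all tested genes. As shares these are 10.5%, 8.70%, 31.2%, 14.3% and 0%.

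Both kinds of ribosomal protein genes served as comparison lists of abundant, jointly expressed genes. Of 86 cytosolic ribosomal protein genes 0 passed the test, 11 lay below zero and the median log2 fold change was 0.07. Of 77 mitochondrial ribosomal protein genes 0 passed, 54 lay below zero and the median was -0.07. The oxidative phosphorylation members, with 74 of 82 below zero, thus lay on the side of the mitochondrial list.

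Markers of other cells moved with the groups as follows. Neutrophil markers summed to 69.1 to 202.0 CPM in Control and 263.0 to 1408 CPM in DSS mice, and 12 of 12 rose. Neuronal markers summed to 228.7 to 394.4 CPM and 169.9 to 259.1 CPM, with 9 of 9 tested below zero and 1, Tubb3, called as fallen (log2 fold change -0.69, adjusted p = 0.0217). The filter on low counts left 9 of 10 neuronal, 12 of 12 neutrophil and 13 of 16 muscle markers to test. By that filter, none of those tested could be at 0 throughout. Choroid plexus markers ran from 247.8 to 7140 CPM in Control and from 302.5 to 7196 CPM in DSS mice, with 0 of 10 called. The 6 tested brown fat markers include the members Cox7a1 and Cox8b, and 3 of the 6 lay below zero and 3 above. Of the 6, 1, Dio2, fell (-1.10, adjusted p = 0.0217). Ucp1, the defining gene of that tissue, had 5 counts in all Control and 4 in all DSS libraries, whereas Dio2 had 20774 and 9557. The part of these cells in the members' values was not tested.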

How the data were processed

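The authors sequenced meningeal total RNA of 12 mice from stranded libraries, per the labels' protocols. Per the submitters' processing notes, reads passed through Trim Galore, HISAT2 (build mm10) and featureCounts, with CASAVA and FastQC also listed. For versions, annotation, strand setting and multi-mapping reads, the settings were not given in the sources used here. The deposited table holds raw counts per gene symbol, with 0 columns of no sample. A deposited normalized table was not used.

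Genes were filtered with filterByExpr (minimum count 10, minimum total 15), scaled by TMM and tested in edgeR 4.0.16 (R 4.3.3) with glmQLFit and glmQLFTest, treatment as the only term, two-sided, Benjamini-Hochberg over 18593 genes. A standard error is the size of the log2 fold change divided by the root of its F statistic. CPM uses TMM library sizes, and mean log2 CPM a prior count of 2. Exon lengths for RPKM came from GENCODE M21 (GRCm38, the assembly of mm10), which matched 83 of 84 members. Exons of 29 members overlap another gene, 26 of them on the other strand, and pseudogene copies are frequent in these families, so their counts are uncertain where reads are shared. The p-values set the difference between the groups against the spread between mice within groups. Total counts (exact two-sided permutation test, p = 0.537), muscle marker level (p = 0.721) and mitochondrial share (p = 0.721) gave an adjusted p of 0.721 each over the 3 measures. The muscle mean of the DSS group rested on DSS replicate 2, with a mean log2 CPM of 3.53. The other DSS mice lay at -1.03 to 0.22 and Control mice at 0.18 to 0.98, a difference that was not tested. The mitochondrial share has ribosomal RNA in its total, which lowers it in Control replicate 2. Libraries of a group were distinct (Spearman 0.967 to 0.987 over 30 pairs).

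Members and lists were chosen with earlier results of these data known. Genes named by rule were all called members, the 3 highest by level per length and the 2 with the smallest p in each complex, the 4 complex II genes, the tissue-restricted subunits and their common forms, mt-Co1, mt-Nd1, Ppargc1a, Acta1, Ckm and up to 3 called genes of each other list. Ribosomal RNA features were picked after the data were seen. Protein sequences planned for the muscle and common forms are not shown. Alternatives were scaling by DESeq2, its Wald test (version 1.42.0), voom of limma 3.58.1 with sample weights, no filter, a replicate block, each mouse left out, both replicates 2 left out, and other complex assignments. The steps were checked on simulated data.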

Additional observations from a re-analysis of the deposited data

Results flagged for a closer look

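A single mouse far from the other 5 of its group was found in 7 of 106 groups checked, which covered the genes named by rule, the mean level of each complex, and measures of the libraries, each in both treatment groups. Chance gives about 1 in 20. None of the oxidative phosphorylation genes or complexes checked stood apart. DSS replicate 2 had skeletal muscle genes far above the other 5 DSS mice: Acta1 at 36.7 CPM (others 0.350 to 0.880 CPM), Ckm at 20.8 CPM (others 0.0333 to 0.369 CPM) and a summed muscle level of 263.5 CPM (others 14.8 to 32.2 CPM). Its share of ribosomal RNA features was 4.66% (others 1.27% to 2.01%). Control replicate 2 had a share of these features of 61.3% (others 1.13% to 10.5%) and a summed neutrophil marker level of 202.0 CPM (other Control mice 69.1 to 111.7 CPM). DSS replicate 3 had the lowest summed neutrophil level of the DSS mice, 263.0 CPM against 1073 to 1408 CPM, and its 36 of 82 members above their own median lay between those of the other DSS mice.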

How the results depend on the processing

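No member rose under any alternative. With the DESeq2 Wald test 1 member fell, 1036 genes rose and 515 fell over all genes, and 2 other pathway genes fell (Tmem126b and Sucla2). With voom 479 genes fell and 1 other pathway gene (Sucla2); with no filter 156 genes fell. Without both replicates 2, 1 other pathway gene (Nfe2l2) rose. Leaving out each mouse gave 443 to 989 risen and 95 to 390 fallen genes, 0 to 1 members fallen, 0 to 1 other pathway genes risen and 0 to 1 fallen.

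Leaving out a mouse moved the members' median log2 fold change from -0.18 to -0.03 and that of complex IV from -0.13 to 0.04. Members with fitted values near zero changed sign: Cox7a2l at 0.011 with DESeq2 size factors, 0.011 with DESeq2 Wald, 0.034 with voom, 0.0039 with no filter and 0.0066 without both replicates 2; Cox7a1 at -0.050 with voom and -0.21 without both replicates 2; Sdhd at 0.0028 with voom and 0.027 without both replicates 2; and without both replicates 2 Cox4i2 at -0.019 and Cox6b1 at -0.017. With each mouse left out, log2 fold changes ran from -0.039 to 0.10 for Cox7a2l, -0.12 to 0.17 for Cox7a1, -0.059 to 0.041 for Sdhd, -0.071 to 0.062 for Cox4i2, -0.071 to 0.11 for Cox6b1, -0.62 to 0.086 for Cox8b, -0.099 to 0.068 for Cox6a1, -0.14 to 0.067 for Ndufa2, -0.18 to 0.00098 for Uqcr10 and -0.10 to 0.10 for Uqcr11. The causes were not tested.

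With the replicate number as a block, 708 genes and 0 members were called (lowest adjusted p 0.101, Sdha), and Cox7a1 was at -0.0018 and Cox7a2l at 0.012. Same-numbered mice did not vary together: the correlation of their deviations lay between -0.189 and 0.154, and 1 of 6 DSS mice matched its own number best.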
